A study of Mus musculus with 15 samples.

Results

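The PRDM genes encode zinc finger proteins that carry a PR domain, a relative of the SET domain of histone methyltransferases. Some members methylate histones themselves and others recruit enzymes that do. Several are known from the germ line: Prdm1 and Prdm14 act when primordial germ cells are set aside, and Prdm9 marks the sites of meiotic recombination. In mature sperm most of the genome outside CpG-rich promoters is heavily methylated.

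The 9 genes Prdm1, Prdm2, Prdm6, Prdm8, Prdm9, Prdm10, Prdm14, Prdm15 and Prdm16 were described here by the CpGs that lie inside their RefSeq spans or within 2 kb of either end (mouse build mm10, GRCm38.p6 gene table). They held 195 of the 204492 CpGs in the deposited tables. The set was chosen by the measured methylation of 1 CpG in Prdm6, which stood out between the diets, and the family was assembled around it. That CpG is therefore described, and a test result at it is no evidence for a difference. It remains in the counts over the 195 CpGs, and its reads remain in the Prdm6 gene values unless stated otherwise. Sperm came from male mice, strain C57BL/6, of the G1 generation, in 8 libraries labelled PR (protein restricted diet) and 7 libraries labelled Control (control diet). The labels do not say whether the mice or a parent ate the diet, give no age, and do not say whether libraries came from separate animals or litters, so a p-value here refers only to how these libraries vary, which may be technical. DNA was cut with MspI, an enzyme that cuts at CCGG, and fragments were sequenced after bisulfite conversion, in which unmethylated cytosines are read as thymine (reduced representation bisulfite sequencing). A level is the percentage of reads that were methylated at a CpG, or over all listed CpGs of a gene.

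Reads summed over all listed CpGs ran from 6650912 to 10712016 in PR libraries and from 7846118 to 11841657 in Control libraries, and a read is counted once for each CpG it covers. The 195 PRDM CpGs had a median coverage of 29.9 reads, against 32.0 over all listed CpGs. No library has fewer than 11 methylated reads at any listed position, so CpGs with little methylation are scarce in the tables, and the labels do not state how positions were selected. The promoters of 8 maternally methylated imprinted genes, which are unmethylated in sperm, held 0 listed CpGs. Over all genes only 0.807% of the 250-base windows upstream of start sites held a listed CpG, so this 0 could not check the cell type. The 3 listed CpGs upstream of Meg3, a paternally methylated imprint, together were at 91.1% to 100% in single libraries. At Rasgrf1, also paternally methylated, 4 listed CpGs together were at 87.01% to 96.4% in single libraries. The methylated region upstream of H19, another paternal imprint, held 0 listed CpGs.

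The PRDM promoter windows that could be checked held no listed position. The RefSeq promoter table matched 6 of the 9 genes with 9 start sites (Prdm1, Prdm8, Prdm9, Prdm10, Prdm15 and Prdm16) and had no entry for Prdm2, Prdm6 and Prdm14. The 250 bases upstream of these 9 start sites hold 124 CG dinucleotides and 12 CCGG sites, and 0 listed CpGs. Some start sites lie well inside the gene span. That of Prdm1 (minus strand) is at 44458748 in a span ending at 44528558. That of Prdm8 is at 98180869 in a span from 98167203, and those of Prdm10 are at 31280549 and 31313427 in a span from 31276110. The outer 5′ ends of these genes were therefore not checked. CG occurs in 92.1% and CCGG in 47.1% of the 32851 windows of the same length in the table, and 0.807% of them hold a listed CpG. Both motifs read the same on the 2 strands, and every CCGG contains a CG. The windows of 4 start sites are shown, each 5′ to 3′ on the strand of its gene with CG in capitals, because they span the range from CpG-dense to CpG-poor and none contributed a value:
Prdm16 (chr4:154636874-154637123, minus strand): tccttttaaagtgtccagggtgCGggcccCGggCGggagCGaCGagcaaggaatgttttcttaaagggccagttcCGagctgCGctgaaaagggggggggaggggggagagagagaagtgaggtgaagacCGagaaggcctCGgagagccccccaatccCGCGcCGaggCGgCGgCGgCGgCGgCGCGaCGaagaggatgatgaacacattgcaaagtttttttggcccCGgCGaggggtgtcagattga
Prdm15 (chr16:97851228-97851477, minus strand): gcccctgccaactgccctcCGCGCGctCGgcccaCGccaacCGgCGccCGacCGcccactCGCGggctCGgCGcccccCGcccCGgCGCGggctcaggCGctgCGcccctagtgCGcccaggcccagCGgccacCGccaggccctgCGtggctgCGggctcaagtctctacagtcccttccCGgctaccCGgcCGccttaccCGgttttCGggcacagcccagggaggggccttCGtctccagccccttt
Prdm9 (chr17:15563332-15563581, minus strand): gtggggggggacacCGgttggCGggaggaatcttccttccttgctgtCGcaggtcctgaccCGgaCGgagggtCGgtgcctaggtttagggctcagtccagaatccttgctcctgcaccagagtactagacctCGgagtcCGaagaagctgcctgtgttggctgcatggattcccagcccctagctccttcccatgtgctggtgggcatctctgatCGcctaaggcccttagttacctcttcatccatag
Prdm10 (chr9:31313177-31313426, plus strand): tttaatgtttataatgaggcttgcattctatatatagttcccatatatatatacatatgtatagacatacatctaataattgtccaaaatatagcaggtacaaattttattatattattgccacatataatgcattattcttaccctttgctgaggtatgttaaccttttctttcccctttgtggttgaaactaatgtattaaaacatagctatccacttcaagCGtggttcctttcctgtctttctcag
The Prdm16 window holds 22 CG and 2 CCGG, the Prdm15 window 30 CG and 5 CCGG, the Prdm9 window 9 CG and 2 CCGG, and the Prdm10 window 1 CG and 0 CCGG. The listed CpG nearest to each of these start sites lay 6219 bases away in Prdm16, 27319 in Prdm15, 4046 in Prdm9 and 4414 in Prdm10. Whether an unlisted CG lacked reads or lacked methylation cannot be told apart. Over all promoters, the 717 matches of a listed position to a 300-base window around a start site were all at the C of a CG on the plus strand.

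Most listed CpGs of the PRDM genes were almost fully methylated in both diets, and the exceptions were few and mostly gathered in place. Because CpGs with little methylation are scarce among those listed, these levels cannot show how methylated the whole gene bodies were. Of the 195 CpGs, 170 had a mean of 95% or more over the libraries and 18 (9.23%) a mean under 90%, against 10.3% of all listed CpGs. Prdm16 alone held 125 of the 195, 118 of the 170 and 4 of the 18, so the pooled values describe mainly that gene. The median level of the 195 was 98.2%, the same to that precision as the median of all listed CpGs. The 18 lay in Prdm6 (7 CpGs), Prdm10 (4), Prdm16 (4), Prdm8 (2) and Prdm2 (1), and Prdm1, Prdm9, Prdm14 and Prdm15 had none. Neighbouring CpGs are covered by the same reads: joined wherever the next CpG was at most 150 bp away, the 195 CpGs formed 65 runs, and CpGs within a run are not independent.

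**Figure D1:**
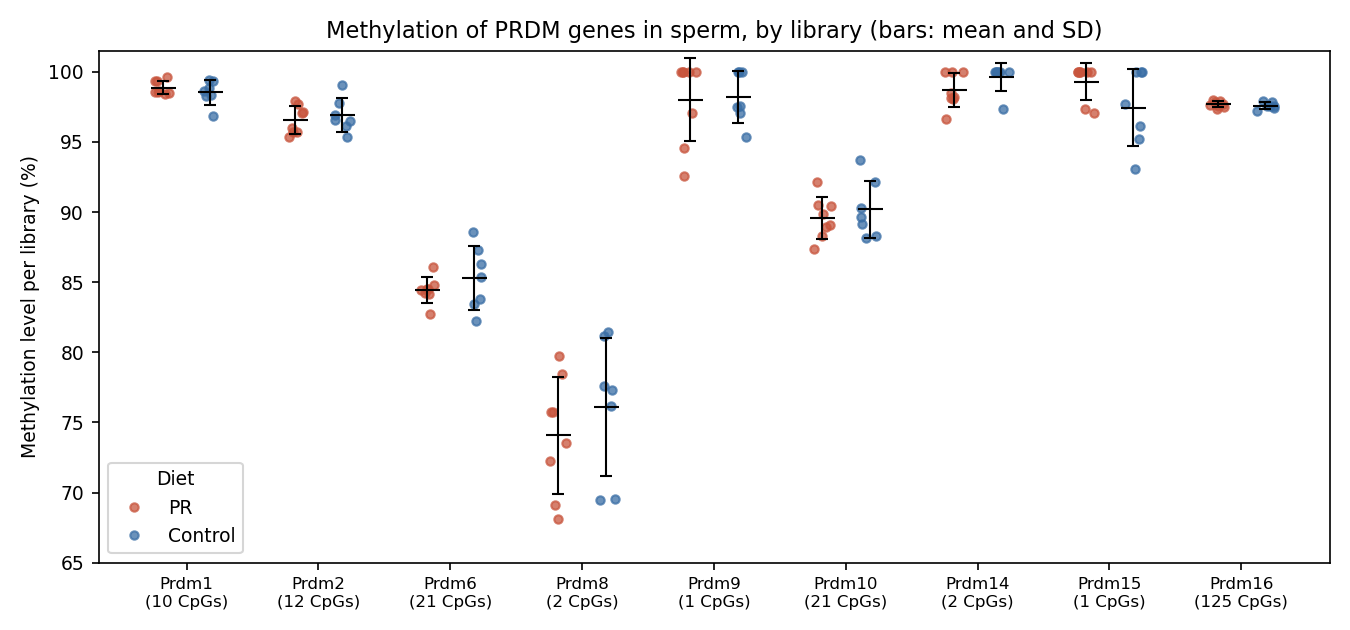
Methylation level of each PRDM gene (y axis, %, axis from 65) in each library, with PR libraries left of Control libraries and bars giving mean and SD. Prdm8, Prdm6 and Prdm10 lie below the other genes in both diets, and the ranges of the diets overlap in all 9 genes.

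The listed CpGs of the early germ line genes were at or near full methylation, which was common. The median level over the 13665 genes with at least 3 listed CpGs was 97.8%. Prdm1 encodes BLIMP1, the repressor that directs cells to the germ line in the mouse embryo and to the plasma cell fate in the immune system (chromosome 10, 44437174 to 44528558). Its 10 CpGs, in 7 runs, summed to 98.4% at the lowest, 98.6% at the median and 99.7% at the highest PR library, against 96.8%, 98.6% and 99.4% in Control libraries. The ranges overlapped, and the difference PR minus Control was 0.345 points (95% interval -0.391 to 1.12), and 0.0645 points without Control replicate 6. Every Prdm1 CpG had a mean of at least 97.7%. Of these CpGs 7 lie upstream of the start site in the promoter table and 3 downstream of it. That start site lies inside the span, as do all 10 CpGs.

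Prdm14, which with Prdm1 sets up primordial germ cells and holds pluripotent cells in their ground state, had 2 listed CpGs (chromosome 1, 13123553 and 13123589) at a coverage of 22.4 reads. The gene was at 96.7%, 98.3% and 100% at the lowest, median and highest PR library, and at 97.4%, 100% and 100% in Control libraries. The first of the pair had 4 unmethylated of 184 reads in PR and 0 of 152 reads in Control libraries. The ranges of the gene overlapped, and the difference of -0.925 points had a 95% interval from -2.23 to 0.354 (exact two-sided permutation p = 0.145). With Control replicate 5 left out, the value became -1.30 points (p = 0.0310 by the same exact permutation test, unadjusted). That was the lowest p of the 15 runs with 1 library left out, in which the difference ran from -1.30 to -0.635 points. Control replicate 5 had 37 methylated of 38 reads.

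Prdm9, the meiotic histone methyltransferase whose zinc fingers place recombination hotspots, had 1 listed CpG (chromosome 17, 15559285) at 42.6 reads. It was at 92.6% at the lowest, 100% at the median and 100% at the highest PR library, against 95.3%, 97.6% and 100% in Control libraries. Prdm15, a regulator of naive pluripotency, also had 1 listed CpG (chromosome 16, 97823908), at 97.1%, 100% and 100% in PR and 93.1%, 97.7% and 100% in Control libraries. With 1 CpG and as few as 29 reads per library at Prdm9 and 19 at Prdm15, these values describe a site and not a gene. The differences were -0.185 points (95% interval -3.17 to 2.59) at Prdm9 and 1.85 points (95% interval -0.487 to 4.22) at Prdm15.

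Prdm16, known for committing cells to the brown fat fate and for maintaining blood and neural stem cells, held 125 of the 195 CpGs, or 64.1% (chromosome 4, 154316122 to 154637360, 33 runs). It was also the most even gene between libraries: 97.4%, 97.7% and 98.0% at the lowest, median and highest PR library, and 97.2%, 97.6% and 97.9% in Control libraries. Its mean was 97.7% ± 0.225 in PR and 97.6% ± 0.238 in Control sperm (SD, n = 8 and 7), and the difference of 0.109 points had a 95% interval from -0.149 to 0.369. Each library had between 3059 and 5299 reads over the gene, and whether that makes the interval narrow was not tested. The dispersion, in which 1 is the spread that independent reads at a single level would give, was 0.908. The median was 1.16 over all 13665 genes with at least 3 listed CpGs.

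Within Prdm16, 118 CpGs had a mean of 95% or more, and 3 of the 4 under 90% lay in a single run 19.6 to 19.7 kb from the low-coordinate end of the span. Its CpG with the lowest mean in the gene (154335684) was at 72.4%, 82.8% and 87.5% at the lowest, median and highest PR library, against 60.9%, 73.1% and 84.2% in Control libraries, at a coverage of 23.3 reads. The other two CpGs of that run averaged 86.3% ± 6.61 and 85.0% ± 8.33 in PR (SD, n = 8), and 86.8% ± 8.51 and 88.4% ± 6.70 in Control sperm (SD, n = 7). All 3 had the same mean coverage, and at the other two the difference PR minus Control had the opposite sign, at -0.465 and -3.46 points. The difference of 8.50 points at 154335684 was the largest at any of the 195 CpGs, its ranges overlapped, and it did not pass the test over all CpGs (quasi-binomial test, adjusted p = 1).

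Prdm2, also called RIZ, a histone methyltransferase and tumour suppressor, had 12 CpGs in 6 runs (chromosome 4, 143107391 to 143212769). Its level was 95.3%, 96.5% and 97.9% at the lowest, median and highest PR library, against 95.3%, 96.6% and 99.0% in Control libraries. One CpG stood apart: 143114561 was at 80.1% ± 6.62 in PR and 86.0% ± 6.53 in Control sperm (SD, n = 8 and 7), while the CpG 132 bp away had at least 96.9% in every library. In all 15 libraries the first, which was named as the lowest CpG of the gene, was lower than the second. Over the gene the ranges of the diets overlapped, and the difference PR minus Control was -0.331 points (95% interval -1.57 to 0.888).

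Prdm8, which acts in neuronal and retinal development, had the lowest level of the members. That level rests on a single pair of CpGs in a span of 20252 bp, so it describes a site and not the gene. Its 2 listed CpGs (chromosome 5, 98183113 and 98183147) start 2244 bp downstream of the start site in the promoter table, the first just outside and the second inside the long non-coding RNA gene A730035I17Rik, at a coverage of 72.5 and 72.8 reads. The gene was at 68.1%, 74.6% and 79.7% at the lowest, median and highest PR library, against 69.5%, 77.3% and 81.5% in Control libraries. The first CpG averaged 67.0% ± 2.94 in PR and 68.4% ± 7.60 in Control sperm, and the second, 34 bp on, 81.1% ± 7.24 in PR and 83.7% ± 3.12 in Control sperm (SD, n = 8 and 7). The first, which was named as the lowest CpG of the gene, was the lower in 15 of 15 libraries. The difference between the diets over the gene was -2.04 points (95% interval -7.15 to 3.12).

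Prdm10, a zinc finger transcription factor, divided by place. Its 5 CpGs that lie 723 to 936 bp before the low-coordinate end of the span, all inside the span of the neighbouring protein-coding gene Gm7244, summed to 76.9% ± 3.85 in PR and 78.1% ± 3.88 in Control sperm (SD, n = 8 and 7). The 16 CpGs within the Prdm10 span (chromosome 9, 31276110 to 31381731) summed to 93.9% ± 0.835 in PR and 94.5% ± 1.42 in Control sperm. The lowest CpG, and the 1 of the 195 with a mean under 50% (0.982% of all listed CpGs), was the one 723 bp before the span (31275387), at 31.1%, 46.9% and 63.3% at the lowest, median and highest PR library, and 38.5%, 46.0% and 65% in Control libraries. Its dispersion was 2.33. A dispersion above 2 was found at 8 of the 195 CpGs (4.10%) and at 2.86% of all listed CpGs.

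**Figure D2:**
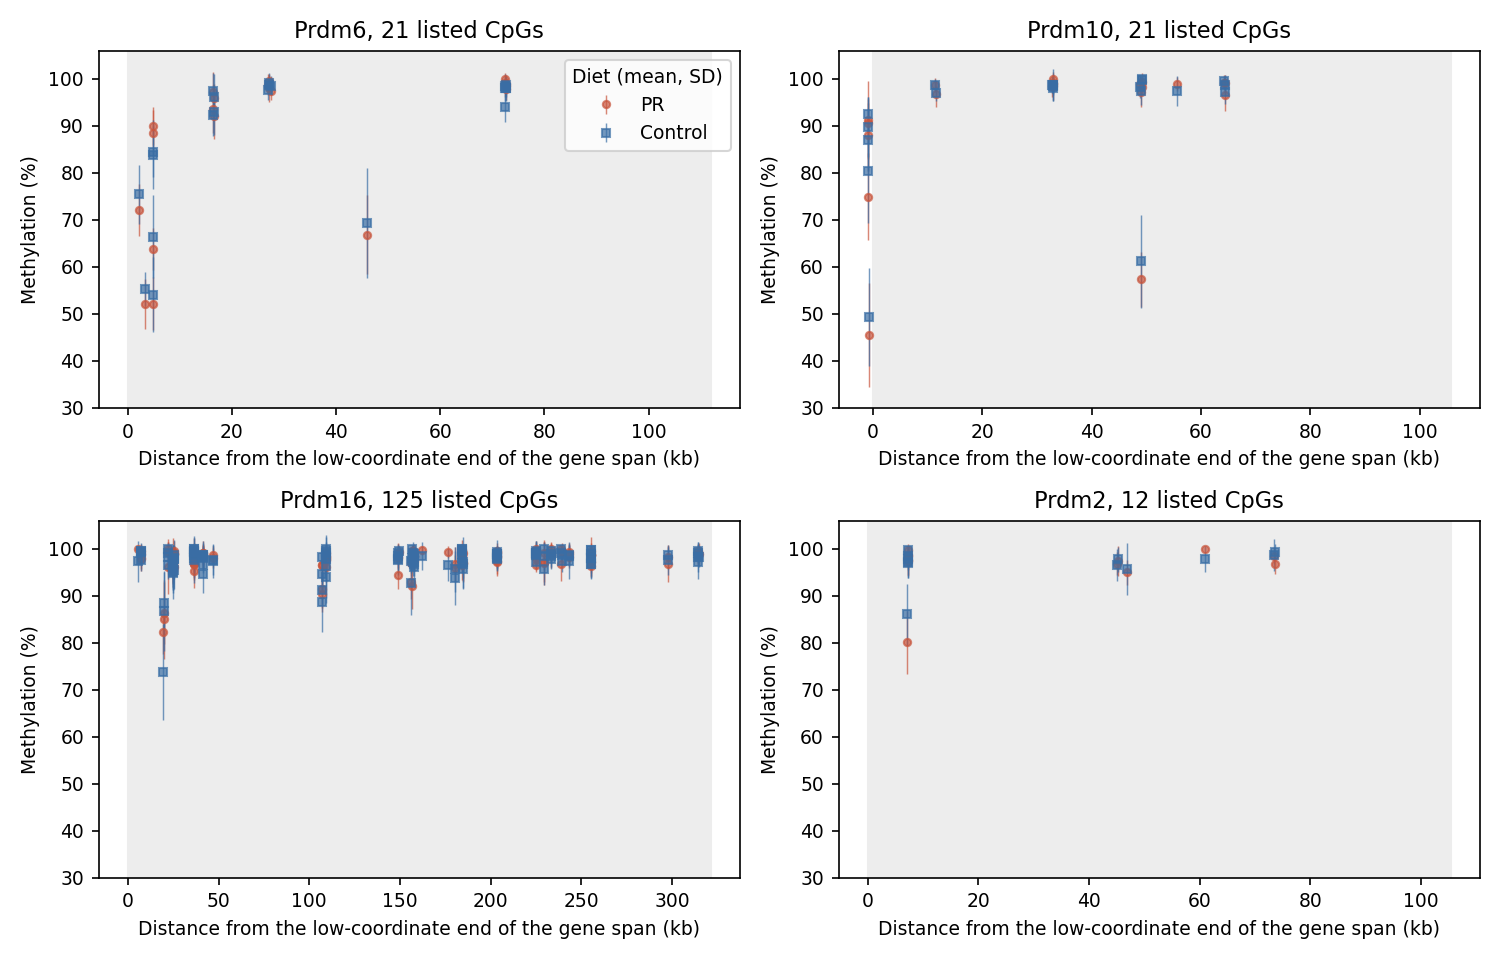
Methylation (y axis, %, mean and SD over libraries) of each listed CpG against its distance in kb from the low-coordinate end of the gene span, for Prdm6, Prdm10, Prdm16 and Prdm2. Grey marks the span, circles are PR and squares Control. Low values gather in the first 5 kb of Prdm6 and just before Prdm10, with single low CpGs inside Prdm6, Prdm10 and Prdm2 and 1 low run in Prdm16.

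Inside Prdm10, a single CpG, chosen after its level was seen, again stood against its neighbours. Position 31325207 was at 51.0%, 56.8% and 67.5% at the lowest, median and highest PR library, against 46.6%, 60.8% and 78.8% in Control libraries. The CpG 24 bp further on had at least 96.3% in every library, and it was the higher of the pair in all 15. The coverage of the 2 positions differed, at 60.5 and 35.9 reads, so they do not rest on the same reads throughout. Over the whole gene, Prdm10 was at 89.6% ± 1.48 in PR and 90.2% ± 2.05 in Control sperm (SD, n = 8 and 7), a difference of -0.609 points (95% interval -2.61 to 1.34), which was -0.0251 points without Control replicate 4.

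Prdm6 is a repressor known from smooth muscle and heart vessels (chromosome 18, 53463955 to 53575904). Its listed CpGs were partly methylated at the low-coordinate end and more highly methylated further in. The 6 CpGs in the first 5 kb of its span, an extent set after their levels were seen, summed to 69.0% ± 2.07 in PR and 69.1% ± 2.92 in Control sperm (SD, n = 8 and 7). The 15 further in summed to 95.3% ± 1.05 in PR and 95.5% ± 0.735 in Control sperm. Within the first part, CpGs a few bases apart held different levels: 53468713 averaged 52.2% ± 5.67 in PR and 54.1% ± 7.96 in Control sperm, while 53468724, 11 bp away, averaged 88.5% ± 4.91 in PR and 84.5% ± 5.41 in Control sperm. Both positions had the same mean coverage of 49.9 reads. The first, which was named as the lowest CpG of the gene, was lower in 15 of 15 libraries. Position 53468731, 7 bp from 53468724, was the lower of those 2 in 14 libraries. The CpG 97 bp beyond 53468724 (53468821) was at 89.98% ± 3.97 in PR and 83.9% ± 7.40 in Control sperm, and 53467240 was at 52.1% ± 5.27 in PR and 55.3% ± 3.53 in Control sperm.

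A single low CpG also lay deep in the gene, at 53509900, with 54.8%, 67.7% and 77.8% at the lowest, median and highest PR library and 47.8%, 68.4% and 83.7% in Control libraries. Over all 21 CpGs Prdm6 was at 82.7%, 84.5% and 86.1% in PR and 82.2%, 85.4% and 88.6% in Control libraries. The PR libraries lay close together within the wider Control range. The difference of -0.858 points (95% interval -2.77 to 1.05) was larger than in either part of the gene, where it was -0.0979 points in the first 5 kb and -0.186 points beyond. The share of the gene's reads that fell in the low first part was 41.6% ± 5.73 in PR and 38.5% ± 6.50 in Control libraries (SD, n = 8 and 7). With each CpG given equal weight the difference was 0.161 points, of the opposite sign.

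The CpG around which the family was assembled is at 53536461 in Prdm6, and what follows is a description of a site picked for its difference. In PR libraries it had 0 unmethylated of 237 reads (24 to 40 reads per library), which allows an unmethylated share of up to 1.27% over the diet and between 7.50% and 12.5% in single libraries, for counting error only. In Control libraries it had 15 unmethylated of 251 reads, or 5.98%, with between 1 and 4 unmethylated reads in each of the 7 libraries. The Control levels therefore ran from 88.6% to 97.4% with a mean of 94.0% ± 3.07 (SD, n = 7), and all lay below the 100% of every PR library. Over all listed CpGs the ranges of the diets failed to overlap at 39, or 0.0191%, and among the PRDM CpGs at this one. A difference at least as large as its 6.01 points, in either direction, was found at 2657 listed CpGs, or 1.30%.

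The run of 6 CpGs that starts there is 116 bp long, and 13 of 15 libraries had the same read total at all 6, so they rest largely on the same reads. The other 5 summed to 98.6% ± 1.10 in PR and 98.3% ± 1.30 in Control sperm (SD, n = 8 and 7), with 17 unmethylated of 1183 reads in PR and 22 of 1255 reads in Control libraries. Their differences ran from -0.182 to 1.11 points, against 6.01 points at the first CpG. The nearest of them, 20 bp away, averaged 98.7% ± 2.55 in PR and 98.4% ± 1.47 in Control sperm (SD, n = 8 and 7). At the other 20 CpGs of Prdm6 the differences ran from -3.36 to 6.06 points. Without the picked CpG, Prdm6 was at 83.8% ± 0.928 in PR and 84.9% ± 2.36 in Control sperm (SD, n = 8 and 7), a difference of -1.12 points with a 95% interval from -3.11 to 0.851 (p = 0.240, exact two-sided permutation test; quasi-binomial test adjusted over all genes, p = 0.999).

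**Figure D3:**
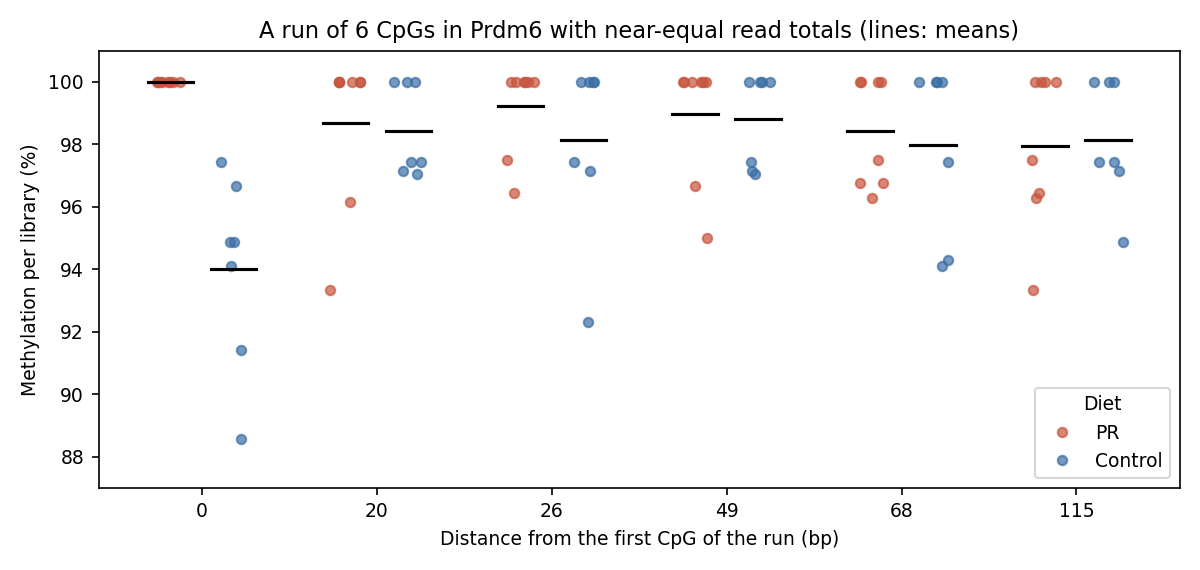
Methylation (y axis, %, axis from 87) in each library at the 6 CpGs of the Prdm6 run, placed by distance in bp from the first, with PR left of Control and lines at the means. At the first CpG every PR library is at 100% and every Control library is below it, and at the other 5 the diets overlap.

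A level of 100% throughout a diet is not rare at this depth. Among the PRDM CpGs 9 (4.62%) were at 100% in every PR library, 12 (6.15%) in every Control library and 2 (1.03%) in all 15 libraries, against 3.22%, 4.24% and 0.418% of all listed CpGs. The picked Prdm6 CpG is 1 of the first 9. Others were at 100% throughout the Control libraries and not in PR: in Prdm16, 154352417 had 9 unmethylated of 202 reads in PR and 0 of 181 reads in Control libraries, and 154338417 had 5 of 146 reads in PR and 0 of 160 reads in Control libraries. Position 31325231 in Prdm10 had 4 of 272 reads in PR and 0 of 267 reads in Control libraries.

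Tested gene by gene, no PRDM gene passed the test between the diets. With at least 3 listed CpGs required, 5 of the 9 genes entered the test (Prdm1, Prdm2, Prdm6, Prdm10 and Prdm16), and 0 passed an adjusted p of 0.05 in a quasi-binomial model of the summed counts, adjusted over 13665 genes, of which 0 passed as well (0%). Each of the 5 had an adjusted p of 0.999 by that test, and at an unadjusted p under 0.05 there were 0 of the 5, against 3.04% of all genes, 1.6% higher and 1.45% lower in PR. Prdm6 was tested with the picked CpG included, and without it the adjusted p by the same test was 0.999 as well. The exact two-sided permutation test over libraries gave p = 0.385 for Prdm1, 0.569 for Prdm2, 0.524 for Prdm10 and 0.374 for Prdm16, all 0.996 when adjusted over all genes, and 4.79% of all genes had an exact p under 0.05 before adjustment. The mean was higher in PR in 2 of the 5, Prdm1 and Prdm16, against 50% of all genes, and lower in Prdm2, Prdm6 and Prdm10, with a median difference of -0.331 points over the 5 and of 0.000672 points over all genes tested.

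**Figure D4:**
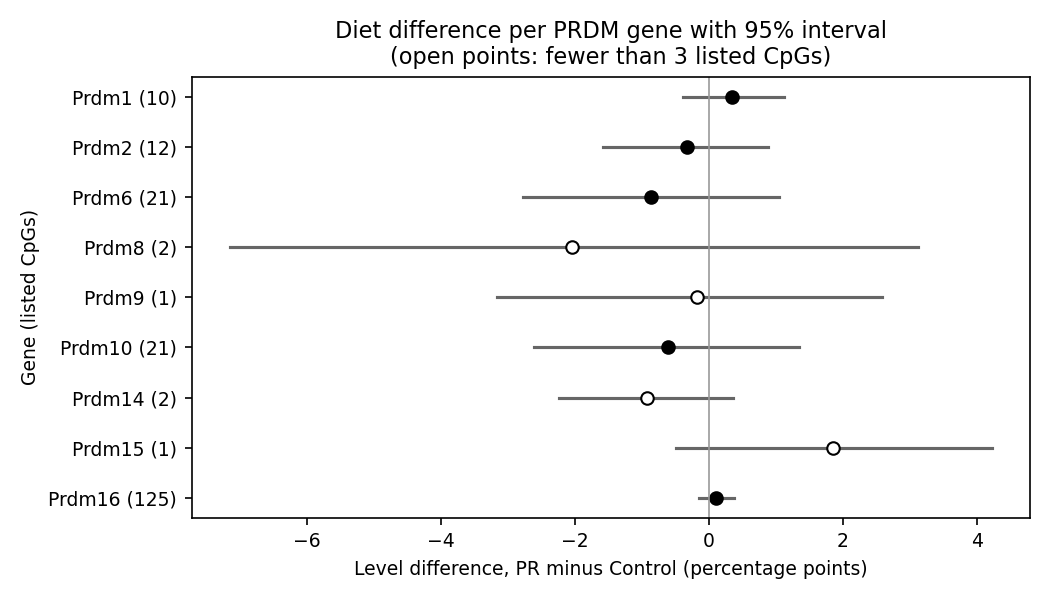
Difference in methylation level PR minus Control (x axis, percentage points) for each PRDM gene with its 95% interval from the exact permutation test, with open points for genes of fewer than 3 listed CpGs. Every interval includes 0, and the interval of Prdm16 is the narrowest and that of Prdm8 the widest. Prdm6 is shown with the picked CpG included.

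At single CpGs the picture was the same. The mean was higher in PR at 107 of the 195, lower at 86 and equal at 2, and 0 passed the quasi-binomial test adjusted over all 204492 CpGs, of which 0 passed (0%). At an unadjusted p under 0.05 there were 11 (5.64%), 5 higher and 6 lower in PR, against 3.79% of all listed CpGs, 1.89% higher and 1.9% lower. The 11 include the CpG that was picked for its difference. With limma on logit values 11 were also at an unadjusted p under 0.05 and 0 adjusted. The share of all CpGs at that unadjusted p was not computed for limma. The largest difference among the 11 was at 53468821 in the first part of Prdm6, at 6.06 points, next to the picked CpG at 6.01 points. In Prdm16 the largest was at 154472996, with 92.2% ± 4.91 in PR and 98.0% ± 2.59 in Control sperm (SD, n = 8 and 7), and in Prdm2 at 143168372, with 100% in every PR library and 97.8% ± 2.74 in Control sperm (SD, n = 7).

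The spread between libraries differed among the genes. The SD within a diet was 0.231 points in Prdm16, 0.694 in Prdm1, 1.09 in Prdm2, 1.69 in Prdm6 and 1.77 in Prdm10, against a median of 1.13 points over all genes tested. It was 4.52 in Prdm8, 2.51 in Prdm9, 2.09 in Prdm15 and 1.11 in Prdm14, which have fewer than 3 listed CpGs and are not among the genes tested. Dispersion, which takes the reads into account, was highest in Prdm10 at 2.63, above 92.5% of all genes, with 1.87 in Prdm6, 1.86 in Prdm2, 1.19 in Prdm1 and 0.908 in Prdm16. In the genes with fewer than 3 CpGs it was 1.54 in Prdm8, 1.44 in Prdm9, 0.891 in Prdm15 and 0.748 in Prdm14. A read that covers several CpGs was counted at each, and the counts of a gene mix CpGs of different levels. For a gene, 1 is therefore not an exact reference. In Prdm6 the median dispersion of its single CpGs was 0.898. The lowest level of a gene came from 1 gene each in PR replicates 1, 4, 6 and 7 and Control replicates 1, 4 and 7, and from 2 genes in Control replicate 6.

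Of 7 further PRDM genes, 6 had listed CpGs and 5 entered the gene test, with 0 called, and Prdm12 had 0 listed CpGs. Mecom, the largest, had 65 CpGs at 94.9% ± 0.992 in PR and 95.01% ± 0.418 in Control sperm (SD, n = 8 and 7). Prdm11 had 10 CpGs at 84.8% ± 3.79 in PR and 83.8% ± 4.28 in Control sperm (SD, n = 8 and 7), with a dispersion of 4.496. Mecom too held a single low CpG, 30435828, at 42.3% ± 5.24 in PR and 37.6% ± 6.41 in Control sperm (SD, n = 8 and 7).

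Partners and targets of PRDM proteins and other SET domain enzymes gave no call either. Of 30 partner and target genes 18 entered the gene test, 8 higher and 10 lower in PR, with a median difference of -0.0143 points. Over all genes tested 50% had a higher mean in PR and 3.04% an unadjusted p under 0.05. Of the 18 partner and target genes 1 had an unadjusted p under 0.05, too few to set apart from that share. It was Hdac2, a histone deacetylase, at 98.9% ± 0.788 in PR and 97.9% ± 1.001 in Control sperm (SD, n = 8 and 7). Hdac2 was named after its values were seen (adjusted p = 0.999, quasi-binomial test). Ppargc1a, the coactivator through which brown fat genes respond to cold, had the most CpGs of that list, 58, at 98.2% ± 0.448 in PR and 98.2% ± 0.254 in Control sperm, and Ctbp2, a corepressor, had 25 at 98.5% ± 0.654 in PR and 98.3% ± 0.676 in Control sperm. Of 32 other SET domain methyltransferases 26 entered, 12 higher and 14 lower in PR (50% of all genes higher), with a median difference of -0.0832 points. Of the 26, 0 had an unadjusted p under 0.05 (3.04% of all genes) and 0 were called. The best covered were Smyd3 with 109 CpGs at 98.0% ± 0.188 in PR and 97.9% ± 0.223 in Control sperm, and Kmt2a with 42 CpGs at 94.9% ± 0.755 in PR and 95.2% ± 1.09 in Control sperm (SD, n = 8 and 7).

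The limit of 2 kb around the spans mattered for Prdm10 alone, whose 5 CpGs before the span are the only ones of the 195 outside a span. The member CpG nearest to the limit, 936 bp out, was at 88.0% ± 7.69 in PR and 87.04% ± 6.62 in Control sperm (SD, n = 8 and 7). The nearest CpG left out lay 4702 bp beyond Prdm1, at 46.8% ± 6.85 in PR and 45.6% ± 7.38 in Control sperm (SD, n = 8 and 7).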

How the data were processed

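Members and gene lists were chosen with earlier results of these data known. Per the file headers, the authors deposited, for each CpG, a raw count of its reads and of those that were methylated. The submitters' processing notes name Bismark 0.7.12, Bowtie2 2.1.0 and the build mm10, with no role for each. For trimming, filters and strand merging, the step was not given in the sources used here. All files list the same positions. A coverage minimum of 10 reads removed 0 positions.

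Levels are methylated over total counts. CpGs, and counts summed over the CpGs of each gene with at least 3, were fitted with a quasi-binomial logistic model on diet (F test, 13 residual degrees of freedom, dispersion at least 1) over the whole table, with Benjamini-Hochberg adjustment at 0.05. The code was tested on simulated data. Exact two-sided permutation tests enumerated all 6435 assignments of libraries to diets (smallest p 0.000155), and 95% intervals invert that test. The 95% intervals therefore hold the spread between libraries as well as counting error, while limits for a count of 0 cover counting error only. The median coverage of 29.9 reads limits the precision. Python 3.11.15, scipy 1.17.1, R 4.3.3 and limma 3.58.1 were used. The named CpGs are the lowest of each gene and the largest difference at an unadjusted p under 0.05. Where the report gives another CpG, it was chosen after its values were seen. Gene names, spans and promoter sequences come from RefSeq GRCm38.p6, without exons. Replicates were numbered in accession order and pair nothing. Alternatives were the coverage minimum, the region, the model, CpG weighting and leaving out each library.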

Additional observations from a re-analysis of the deposited data

Results flagged for a closer look

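For the PRDM genes and their named CpGs 38 sets of values, each from 1 diet, were examined for a single distant library, and 2 had one. For normally distributed values chance gives about 1 in 20, which was not computed here and need not hold for levels at 100%. At Prdm14, Control replicate 5 had a level of 97.4% and each other Control library 100%, so any lower value would have stood out. The Prdm16 CpG 154335684 was at 72.4% in PR replicate 5, with the 7 further PR libraries between 80.8% and 87.5%, at a site with 13 to 30 reads per library.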

How the results depend on the processing

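The count of 0 PRDM genes called held in every alternative run, including each library left out. The count of 0 PRDM CpGs called held at a minimum of 20 reads (76 CpGs left), with limma and in the spans alone, but was 1 with the dispersion left without a lower limit: the CpG in Prdm6 that was picked for its difference, so the call is no evidence for it, where the same quasi-binomial fit called 194 CpGs, or 0.0949% of all. CpGs at an unadjusted p under 0.05 numbered 11 (5.64%, against 3.79% of all listed CpGs), and 3 with the higher minimum (fewer CpGs tested) and 22 without the limit. For the higher minimum and the missing limit the share over all CpGs was not computed, so those counts cannot be called many or few. At the picked Prdm6 CpG the difference of 6.01 points was 1.30 points over its 1 kb window, which adds the 5 other CpGs. With single Control libraries left out it was 5.10 to 6.58 points. All PR libraries had the same level there, so leaving out a PR library could not change it. The site was picked for this difference, so the range is no evidence that the difference is stable. The difference changed sign in Prdm6 with CpGs weighted equally (0.161), in Prdm2 without Control replicate 4 (0.0254; range over libraries left out -0.594 to 0.0254) and in Prdm9 without 5 single libraries (range -0.662 to 0.591). With single libraries left out the difference, in points, ran from 0.0645 to 0.495 in Prdm1, -1.37 to -0.308 in Prdm6, -3.15 to -1.15 in Prdm8, -0.976 to -0.0251 in Prdm10, 1.13 to 2.28 in Prdm15 and 0.0454 to 0.167 in Prdm16. In Prdm14 it ran from -1.30 to -0.635 points. The -1.30 points came without Control replicate 5 (exact permutation p = 0.0310, the lowest of the 15 such runs, against 0.145 with all libraries). The spread in Prdm6 was 0.996 points with equal weights, against 1.69. No paired analysis was possible because the labels give no replicate numbers that the diets share. Prdm9 and Prdm15 rest on 1 listed CpG each, and Prdm14 and Prdm8 on 2.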
